A study of Homo sapiens with 2 samples.

Results

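The mitochondrial respiratory chain genes are the nuclear genes for subunits of complexes I to IV and of ATP synthase, complex V. They were taken by gene symbol: NDUFA, NDUFB, NDUFC, NDUFS and NDUFV genes, SDH genes, UQCR genes with CYC1, COX4 to COX8 genes and ATP5 genes, without pseudogenes and assembly factors. The rule found 83 genes of 18132 on the array, with 191 probe sets, and no measured value entered it. Complex I had 35 of them, complex II 3, complex III 9, complex IV 17 and complex V 19. The 13 subunits encoded in mitochondrial DNA were not analysed here.

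The cells were HCT116, an established line from a human colorectal carcinoma, grown in DMEM with 10% fetal bovine serum. The control carried a scrambled hairpin and the knockdown carried shSUN2-1, a single short hairpin RNA against SUN2, a gene whose product spans the inner nuclear membrane and helps to form the LINC bridge between nucleus and cytoskeleton. The comparison asks which transcripts differ when SUN2 is targeted. Each group was 1 Affymetrix PrimeView array made from 100 ng of total RNA, so there are no replicates and no test, and no value below carries an SD between cultures. Whether the cells were a pool or a clone was not given in the sources used here. SUN2 itself read 497.7 in the control and 407.3 in the knockdown, a difference of -0.28 or 1.21-fold lower, and its 4 probe sets past the brightness filter described below differed by -0.39 to -0.07.

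The chain passes electrons from NADH through complex I, or from succinate through complex II, to coenzyme Q, then through complex III, cytochrome c and complex IV to oxygen. Complexes I, III and IV pump protons across the inner membrane, and ATP synthase lets them flow back to make ATP. Every one of these complexes except complex II joins nuclear subunits to subunits made inside the mitochondrion, so nuclear genes, assembly factors and mitochondrial ribosomes have to work together.

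A level is the deposited intensity of a probe set, and a difference is the knockdown minus the control on the log2(intensity + 16) scale. A gene was represented by its brightest probe set, and it passed the filter when that probe set reached the median brightness of the array, an intensity near 108. Of the 83 genes, 80 passed; COX4I2, COX7A1 and COX8C did not. The only available error is the scatter of probe sets around their gene's mean difference, an SD of 0.09 over 5786 genes and 0.07 over the 48 respiratory chain genes with 2 or more probe sets past the filter. It covers probe error on these 2 arrays and nothing else.

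As deposited, the respiratory chain genes were slightly higher in the knockdown array, and this direction turned when the trend of the difference with brightness was taken out. The median over the 80 genes was 0.05, with quartiles of -0.01 and 0.12, against -0.0009 over the 12220 genes past the filter. It was -0.05 after quantile normalization and also -0.05 after a loess correction on intensity, where the median of all genes was -0.03 and -0.01. The arrays measured RNA from whole cultures, so fewer cells of a type and less RNA per cell cannot be told apart. As deposited, 57 of 80 were higher, where 49.8% of all genes were. After quantile normalization 25 of 80 were higher, and after loess 23. The exact share of all genes that were higher under each of these scalings is not given here. It was at least 39.9%, the share that was higher under all 4 scalings described below.

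These genes are bright, and bright genes as a whole were higher in the knockdown array. Of the 80, 65 lay in the brightest 10% of genes, whose 1222 members had a median difference of 0.10 and were higher in 79.9% of cases. The 65 respiratory chain genes there had a median of 0.06, and 51 of them (78.5%) were higher. After loess the median of these 65 was -0.05 and that of the 1222 genes -0.001. Of the 65, 20 were higher after quantile normalization and 18 after loess. At least 45.3% of the 1222 genes were higher in each case, the share that was higher under all 4 scalings. The other 15 had a median of -0.05, and 6 of them were higher. Of these 15, 6 lay in the next brightest bin of equal size, where 70.4% of all genes were higher, and the rest in dimmer bins, where 30.9% to 60.8% were. As deposited, the share of higher genes among the 65 was near the background of genes of like brightness.

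Large differences were rare among them. At 1.1-fold, 18 of 80 were higher, near the 20.2% of all genes, and 2 were lower, against 9.32%. Within the brightest 10%, 15 of 65 (23.1%) were 1.1-fold higher, below the 38.4% of the 1222 genes there, and 1 was 1.1-fold lower, against 4.91%. At 1.2-fold, 0 of 80 were higher, where 5.95% of all genes were, and 1 was lower, ATP5MC1, where 0.884% were. Within the brightest 10% these shares of all genes were 11.9% and 1.64%, and 0 and 1 of the 65 passed. No member reached 1.5-fold. A total of 23 genes were higher under all 4 scalings (as deposited, median centred, quantile normalized and loess corrected), against 39.9% of all genes, and 19 were lower under all 4, against 43.7%. Within the brightest 10% these counts were 18 and 10 of 65, where 45.3% and 16.4% of the 1222 genes kept the same signs. Of the 48 genes with 2 or more probe sets past the filter, 33 (68.8%) had all of them on the same side of 0, compared with 63.9% of 5786 genes.

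**Figure D1:**
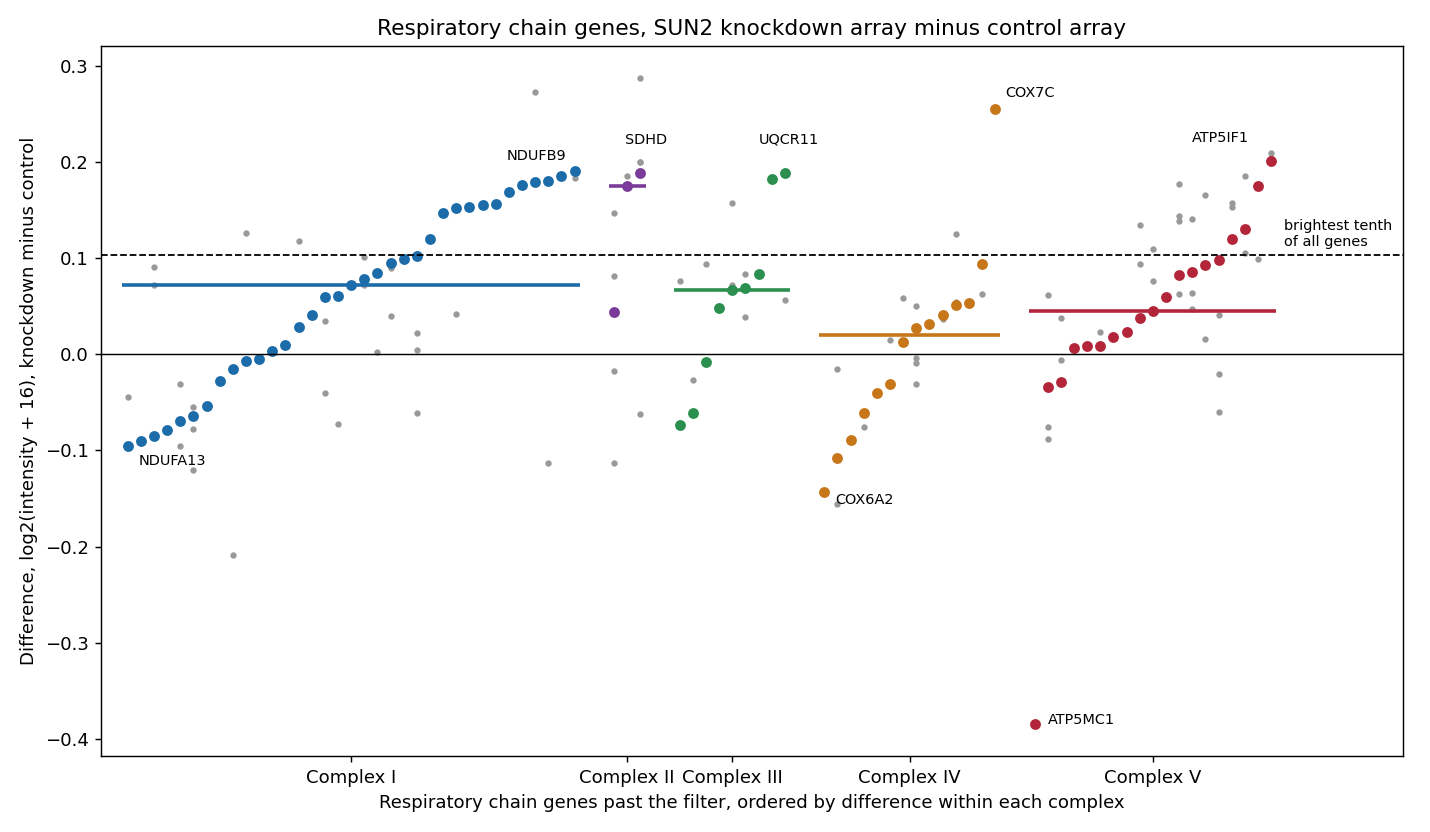
Each coloured point is the brightest probe set of 1 respiratory chain gene past the filter, ordered within its complex, and grey points are its other probe sets past the filter; the y axis is the log2 difference, knockdown minus control. Coloured bars are medians by complex as deposited, from 0.02 (complex IV) to 0.17 (complex II), and those of complexes I, III, IV and V turned negative after quantile normalization or loess; ATP5MC1 lies apart at -0.38, and the dashed line is the median of the brightest 10% of all genes, 0.10.

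The 2 genes at the ends of this range were ATP5MC1 and COX7C. ATP5MC1 encodes subunit c, which forms the proton-driven rotor ring of ATP synthase. Its level was 1509 in the control and 1152 in the knockdown, a difference of -0.38 or 1.31-fold lower, and 29 of the 12220 genes had a larger decrease. The difference was larger than the probe set SD and was -0.50 after quantile normalization and -0.49 after loess. It rests on 1 probe set, of the _x_at class, whose probes may also match other genes, and ATP5MC1 had no value without that class.

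ATP5MC2 and ATP5MC3 encode the same mature subunit c with different import sequences, and neither was lower as deposited. ATP5MC2 read 1688 and 1709, a difference of 0.02 on 1 probe set. ATP5MC3 read 4591 and 4872, a difference of 0.09, and its 4 probe sets gave differences of 0.05 to 0.14. Both were slightly lower after quantile normalization (-0.09 and -0.01) and after loess (-0.09 and -0.02), and ATP5MC1 lay below both under each of these scalings. COX7C, a small subunit of complex IV, stood at the other end. Its level was 4595 in the control and 5486 in the knockdown, a difference of 0.25 or 1.19-fold higher, on 1 probe set. The difference was 0.15 after quantile normalization and after loess, and 806 genes had a larger increase.

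Promoters are shown for 4 genes, because nuclear subunit genes are known to share binding sites for NRF1, for ETS factors such as GABPA and for YY1: ATP5MC1 and COX7C as the ends of the range, ATP5MC2 as the paralog that did not follow ATP5MC1, and UQCR11, the highest complex III gene. Each is the 250 bases before the start in RefSeq, build GRCh38.p14, on the gene's strand. ATP5MC1 lies at chr17:48892537-48892786 (+), ATP5MC2 at chr12:53676084-53676333 (-, 1 of 3 listed starts), COX7C at chr5:86617691-86617940 (+) and UQCR11 at chr19:1605463-1605712 (-). Capitals mark matches to the NRF1 core GCGCANGCG, the ETS core CCGGAAG, the YY1 core AAGATGGC or the CRE TGACGTCA, on either strand.
ATP5MC1: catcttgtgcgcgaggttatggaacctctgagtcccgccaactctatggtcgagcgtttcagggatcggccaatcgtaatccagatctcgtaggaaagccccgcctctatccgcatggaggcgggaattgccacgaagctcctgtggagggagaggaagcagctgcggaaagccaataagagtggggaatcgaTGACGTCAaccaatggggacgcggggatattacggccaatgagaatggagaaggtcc
ATP5MC2: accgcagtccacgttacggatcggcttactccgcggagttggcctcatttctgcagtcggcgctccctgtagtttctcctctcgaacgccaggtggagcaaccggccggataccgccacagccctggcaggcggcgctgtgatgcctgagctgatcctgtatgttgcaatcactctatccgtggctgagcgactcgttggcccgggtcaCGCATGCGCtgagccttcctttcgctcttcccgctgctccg
COX7C: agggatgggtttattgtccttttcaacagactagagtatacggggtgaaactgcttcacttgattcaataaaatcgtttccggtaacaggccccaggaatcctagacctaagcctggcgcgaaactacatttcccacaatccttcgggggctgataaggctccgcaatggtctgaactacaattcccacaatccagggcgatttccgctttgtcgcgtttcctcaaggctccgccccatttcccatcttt
UQCR11: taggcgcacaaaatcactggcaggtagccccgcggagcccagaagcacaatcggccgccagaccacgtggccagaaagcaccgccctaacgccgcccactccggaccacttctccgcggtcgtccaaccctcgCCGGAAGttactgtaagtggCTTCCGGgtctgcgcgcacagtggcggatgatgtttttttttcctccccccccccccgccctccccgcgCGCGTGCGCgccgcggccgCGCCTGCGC

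The ATP5MC1 sequence holds the CRE, a palindrome that CREB and related factors bind, 57 bases before the start. The ATP5MC2 sequence holds the NRF1 core on the other strand 41 bases before the start. UQCR11 holds 2 NRF1 cores, 28 and 9 bases before the start, and 2 ETS cores, 117 and 97 bases before it. COX7C has none of these letters in this window. The CRE was searched for after the ATP5MC1 promoter had been seen. A match is a description of the letters and not a binding site.

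Over the whole 300 base windows (250 before to 50 after the start), 67 of the 83 genes matched, with 80 promoters. The NRF1 core was in 22 of these 80 (27.5%), against 7.52% of all 35116 promoters in the table and 9.94% of the 20005 of protein-coding genes on the array. The ETS core was in 21 (26.2%, against 10.3% of all and 13.1% of the coding promoters). The YY1 core was in 12 (15%, against 2.89% and 3.66%) and the CRE in 4 (5%, against 1.85% and 2.34%). Median differences lay close together with and without these letters. Genes with the NRF1 core had a median difference of 0.07 (21 past the filter) and those without it 0.04 (45). With the ETS core the median was 0.05 (20) and without it also 0.05 (46). With the YY1 core it was 0.01 (11) and without it 0.05 (55). With the CRE it was 0.0431 (4) and without it 0.0465 (62). The 4 CRE genes were ATP5MC1 (-0.38), NDUFA10 (-0.07), NDUFB2 (0.16) and ATP5ME (0.18).

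Complex I had 35 genes, all past the filter, with a median of 0.07 and a range of -0.10 to 0.19. As deposited 24 (68.6%) were higher and 11 lower, and its median was -0.03 after quantile normalization and after loess. Of the 35, 28 lay in the brightest 10% of genes, and 22 of these (78.6%) were higher, near the 79.9% of all genes there. A total of 13 genes (37.1%) were higher and 8 (22.9%) lower under all 4 scalings. These shares were 39.9% and 43.7% over all genes, and 45.3% and 16.4% in the brightest 10%. The 11 NDUFB genes, whose products sit in the membrane arm, had a median of 0.09 as deposited, with 9 (81.8%) higher. After loess their median was -0.01, with 5 higher. The 12 NDUFA genes had a median of 0.05 as deposited, with 8 (66.7%) higher, and -0.06 after loess, with 4 higher. As deposited, 49.8% of all genes and 79.9% of the brightest 10% were higher. After loess these shares were at least 39.9% and 45.3%, the shares higher under all 4 scalings.

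The genes of the NADH-oxidizing tip and the neighbouring iron-sulfur subunits did not all differ in the same direction as deposited. NDUFV1, which binds NADH and FMN, read 566.5 and 531.2, a difference of -0.09 on 1 probe set. NDUFV2, its iron-sulfur partner, read 1638 and 1781, a difference of 0.12 on 1 probe set. NDUFV3 read 436.4 and 412.3, a difference of -0.08. Each of these kept its sign under all 4 scalings, but NDUFV2 was only 0.02 after quantile normalization and 0.01 after loess. NDUFV1 was -0.195 and -0.167 there, and as deposited its -0.0903 lay within the probe set SD of 0.0944. That SD describes single probe sets and not the gap between 2 genes.

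NDUFS1, the large iron-sulfur subunit that takes electrons from that tip, read 313.4 and 337.5, a difference of 0.10, but its 4 probe sets that passed spanned -0.06 to 0.10. NDUFS3, a core subunit of the arm that leads to coenzyme Q, read 1139 and 1292, a difference of 0.18, and its dimmer probe set gave -0.11. NDUFS7 and NDUFS8, which carry the last iron-sulfur clusters before coenzyme Q, differed by 0.06 and -0.02. The NDUFS7 probe sets spanned -0.04 to 0.06, and the dimmer NDUFS8 probe set gave -0.21. The probe sets of NDUFS1, NDUFS3 and NDUFS7 thus lay on both sides of 0, and only those of NDUFS8 were all lower as deposited.

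The complex I genes with the highest values were accessory subunits apart from NDUFS3. NDUFB9 read 3889 and 4439, a difference of 0.19, and its 3 probe sets past the filter agreed closely, from 0.18 to 0.19. NDUFA6 read 2032 and 2313, a difference of 0.19 on 1 probe set. NDUFB5 read 1205 and 1367, a difference of 0.18, and 0.27 on its other probe set. These 3 genes stayed above 0 under the scalings, with values of 0.06 to 0.11 after quantile normalization and 0.07 to 0.08 after loess.

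At the lower end, NDUFA13, also known as GRIM-19, read 1246 and 1165, a difference of -0.10, with -0.04 on the other probe set that passed. NDUFC2 read 1823 and 1717, a difference of -0.09, whereas its 2 dimmer probe sets differed by 0.07 and 0.09. Among members chosen after their values were seen, NDUFA3 was lower on all 4 of its probe sets (-0.12 to -0.05) and NDUFA10 on all 3 (-0.10 to -0.03). On the brightest probe sets as deposited, no decrease in complex I reached 1.1-fold; NDUFA13 was -0.22 after quantile normalization and -0.20 after loess.

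Complex II, which is also the succinate dehydrogenase of the TCA cycle, had 3 genes here, and its median of 0.17 was the highest of the complexes as deposited. SDHA, the flavoprotein that oxidizes succinate, read 464.1 and 525.8, a difference of 0.17, with 0.18 on the other probe set that passed. SDHD, a membrane anchor, read 228.4 and 262.6, a difference of 0.19. Its 5 probe sets spanned -0.06 to 0.29, and 2 of them carried identical values and so are no separate evidence. SDHC, the other anchor, read 675.8 and 697.1, a difference of 0.04, with 5 probe sets from -0.11 to 0.15, and it was -0.06 after quantile normalization and -0.05 after loess. The median stayed above 0 after quantile normalization (0.08) and loess (0.11). It rests on 3 probe sets of the _x_at class, and without the _x_at and _s_at classes SDHC alone passed the filter, at -0.11.

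Complex III had 9 genes with a median of 0.07 and a range of -0.07 to 0.19, and the median was -0.04 after quantile normalization and after loess. Its core proteins UQCRC1 and UQCRC2 lay lowest, and the small subunits UQCR10 and UQCR11 highest. UQCRC1, a core protein, read 1129 and 1072, a difference of -0.07, and UQCRC2, the other, read 708.5 and 678.6, a difference of -0.06. The dimmer UQCRC1 probe set gave 0.08, so its direction depends on the probe set, while both UQCRC2 probe sets were lower.

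CYC1, the cytochrome that hands electrons to cytochrome c, read 1674 and 1754, a difference of 0.07, and all 3 of its probe sets were higher, up to 0.16. UQCR11 and UQCR10, which encode small subunits of the membrane part, read 1864 and 2126 (0.19) and 2981 and 3383 (0.18), and both stayed above 0 under all 4 scalings. UQCRB and UQCRQ, also small subunits, differed by 0.07 and 0.05. UQCRH, the hinge protein beside cytochrome c1, read 3650 and 3630, a difference of -0.01. Its near-identical copy UQCRHL read 1449 and 1535, a difference of 0.08 on an _x_at probe set, so the signals of these 2 genes cannot be told apart with certainty. UQCRB, UQCRQ, UQCRHL and CYC1 turned negative after quantile normalization and loess.

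Complex IV had 17 genes, of which 14 passed the filter, with a median of 0.02 and 8 of 14 higher. It was the lowest median of the complexes as deposited, and it was -0.07 after quantile normalization and -0.08 after loess. As deposited, the 8 of 14 made up 57.1%, against 49.8% of all genes. In the brightest 10% of genes, 8 of 11 complex IV genes (72.7%) were higher, against 79.9% of all genes there. Only COX7C of the 14 (7.14%) was higher under all 4 scalings, where 39.9% of all genes were. A total of 6 (42.9%) were lower under all 4, near the 43.7% of all genes. The dim isoforms COX6A2, COX6B2 and COX7B2, described below, were among these 6. COX4I1, a regulatory subunit that starts assembly with the mitochondrial COX1 protein, read 3312 and 3433, a difference of 0.05. COX5A, its assembly partner, read 2782 and 2888, also a difference of 0.05. Both turned negative after quantile normalization and loess, at -0.06 to -0.04. COX8A read 3069 and 2941, a difference of -0.06, and its other probe set gave -0.08; it was lower under all 4 scalings. COX7B read 2957 and 3155, a difference of 0.09, and -0.01 after loess. COX6A1 differed by -0.03, COX6B1 by 0.03, COX7A2 by 0.03 and COX7A2L, which links complexes III and IV in supercomplexes, by 0.04, and the 3 higher ones turned negative after quantile normalization and loess.

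Isoforms of complex IV that belong to other tissues were dim and slightly lower as deposited. COX6A2 and COX7A1 are the heart and muscle forms, COX4I2 is a lung form known to respond to hypoxia, and COX6B2, COX7B2 and COX8C are testis forms. COX6A2 read 156.4 and 140.1, a difference of -0.14. COX6B2 read 179.9 and 165.9, a difference of -0.11, and COX7B2 read 115.6 and 107.7, a difference of -0.09. COX4I2 (76.19 and 69.04), COX7A1 (73.92 and 72.15) and COX8C (79.24 and 78.11) were below the filter. The 23 background control probe sets had a median of 69.3 on the control array, and 20 of them were lower in the knockdown array. After loess COX7A1 lay at 0.001 and COX8C at 0.01, so no direction holds for these 2.

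Complex V had 19 genes with a median of 0.05, and 16 (84.2%) were higher as deposited. Of the 19, 18 lay in the brightest 10% of genes, and 15 of these (83.3%) were higher, near the 79.9% of all genes there. The complex V median was -0.03 after quantile normalization and -0.05 after loess. Under all 4 scalings 5 genes (26.3%) were higher and 3 (15.8%) lower, against 45.3% and 16.4% of the brightest 10%. The 5 genes of the catalytic F1 head lay between 0.01 and 0.12 as deposited, and 1 of the 5 was higher after loess. At least 45.3% of the brightest 10% were higher after loess. ATP5F1B, the catalytic beta subunit, read 2137 and 2150, a difference of 0.01. ATP5F1A, the alpha subunit, read 2987 and 3199, a difference of 0.10, but its 4 probe sets spanned -0.06 to 0.10. ATP5F1C and ATP5F1D, of the central stalk, differed by 0.09 and 0.12, with all 3 probe sets of each gene higher as deposited; only ATP5F1D also stayed above 0 after quantile normalization and loess, at 0.01 in both.

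The stator genes stood near 0. The 4 ATP5P genes had a median of 0.01, with 3 higher as deposited and 0 after loess. Of the 1222 brightest genes, at least 45.3% were higher after loess. ATP5PO, which joins the stator to the F1 head, read 3022 and 2962, a difference of -0.03. The 6 small membrane subunit genes other than the c ring (ATP5ME, ATP5MF, ATP5MG, ATP5MGL, ATP5MJ and ATP5MK) had a median of 0.06, with 5 higher as deposited and 3 after loess. ATP5ME read 2745 and 3102, a difference of 0.18, and ATP5MK read 3586 and 3927, a difference of 0.13; each kept its sign under all 4 scalings. ATP5MF read 2793 and 2728, a difference of -0.03, with 3 of its 4 brighter probe sets lower.

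ATP5IF1 encodes the inhibitor that stops ATP synthase from running backwards and burning ATP. It read 2979 and 3425, a difference of 0.20 or 1.15-fold higher. The 3 probe sets that passed gave 0.20 to 0.21, and the difference was 0.12 after quantile normalization and 0.09 after loess. All 3 are of the _x_at or _s_at class, and ATP5IF1 had no value without these classes. As deposited, the inhibitor gene was the highest and ATP5MC1 the lowest of the complex V genes, and both kept their sign under all 4 scalings.

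**Figure D2:**
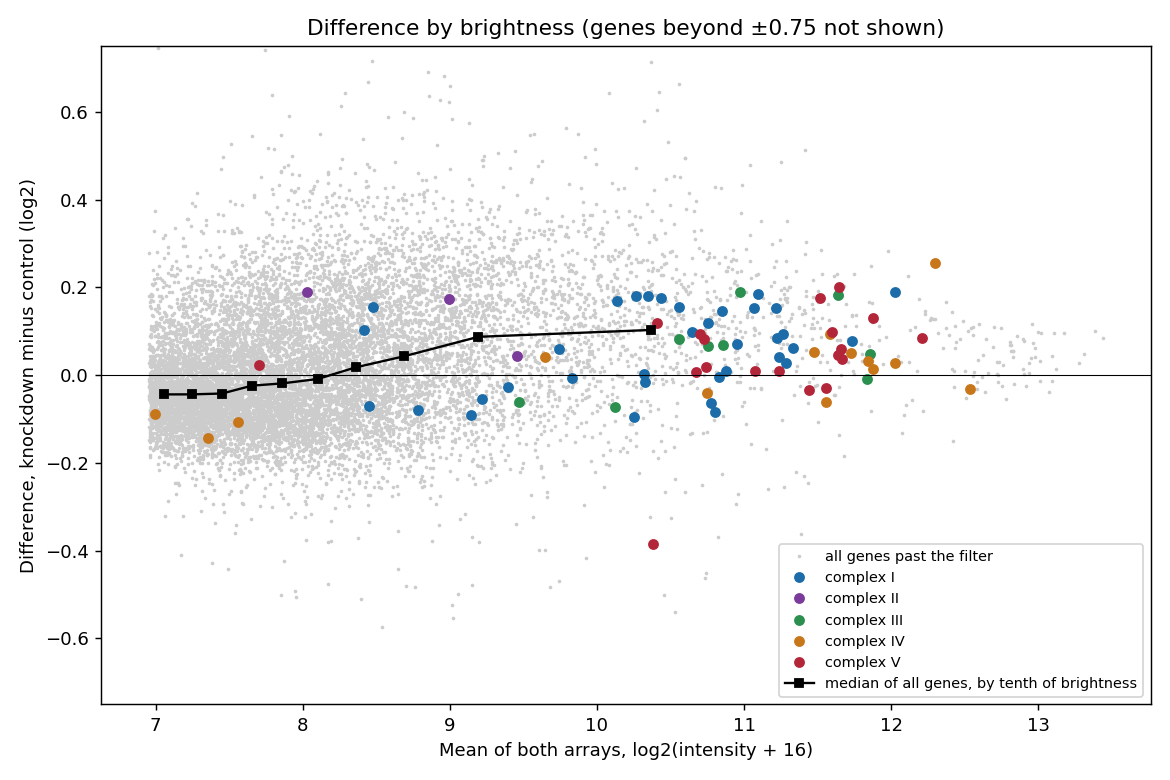
Each grey point is 1 gene past the filter, with its mean over both arrays on the x axis (log2(intensity + 16)) and its log2 difference, knockdown minus control, on the y axis; coloured points are respiratory chain genes by complex and black squares the median of all genes in 10 equal bins of brightness, with the few genes beyond the axis left out. The median climbs from -0.04 in the dimmest bin to 0.10 in the brightest, where 65 of the 80 respiratory chain genes lie.

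Lists of genes that build and maintain the chain had higher medians than its subunits. The 52 assembly factor genes of complexes I to V had a median of 0.15. Of these, 46 (88.5%) were higher as deposited, against 49.8% of all genes. Under all 4 scalings 42 of 52 were higher, against 23 of 80 subunits and 39.9% of all genes. In the brightest 10% lay 13 of the 52 and 65 of the 80, so the 2 counts are not matched for brightness. After loess the assembly factor median was 0.12 and the subunit median -0.05. Within the brightest 10% of genes the medians were 0.17 for 13 assembly factors, 0.06 for 65 subunits and 0.10 for all 1222 genes. Of the 13 there, 12 (92.3%) were higher as deposited, against 79.9% of the 1222 genes. No test of this difference exists with 1 array per group.

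The complex I assembly factors (16 genes, 14 or 87.5% higher, against 49.8% of all genes) had a median of 0.13, and 0.04 after loess. NDUFAF6 led them, with 232 and 319.9, a difference of 0.44, and its 2 probe sets gave 0.44 and 0.46. NDUFAF2 differed by 0.23 on 1 probe set. The complex IV assembly factors (22 genes, 20 or 90.9% higher) had a median of 0.19, and 0.16 after loess. COX11, which delivers copper to the complex, differed by 0.38, and its 6 probe sets spanned 0.09 to 0.38. COX14 differed by 0.32 on 1 probe set. Of the complex V factors, TMEM70, which helps the c ring to form, read 936.4 and 1197, a difference of 0.35 on 1 probe set, and ATPAF1 differed by 0.21. SDHAF2, which attaches flavin to SDHA, differed by 0.33, and SDHAF1 by 0.16. Among the 6 complex III factors, TTC19 differed by 0.21, and 0.09 on its other probe set. UQCC3 differed by 0.12, but its other probe set gave -0.09.

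Mitochondrial ribosomal proteins, which help to translate the mitochondrial subunits, were higher in 69 of 74 genes (93.2%) as deposited, against 49.8% of all genes. Their median was 0.17 (0.10 after loess). The largest differences were those of MRPL50 (0.39 on 1 probe set) and MRPL39 (0.34 on the brightest of 2, 0.37 on the other). The 23 import genes had a median of 0.17 (0.09 after loess), with 22 (95.7%) higher as deposited. The matrix chaperone HSPA9 differed by 0.33 and TIMM8B by 0.32. The 12 cristae genes had a median of 0.13 (0.07 after loess), with PHB1 at 0.22 and IMMT, the scaffold of the cristae junction, at 0.20 and 0.13 to 0.27 over its 5 probe sets. In the brightest 10% of genes the medians were 0.17 for 32 mitochondrial ribosomal proteins and 0.23 for 8 import genes, above the 0.10 of all genes there. They were 0.16 for 3 cristae genes, 0.08 for 2 biogenesis regulators and 0.06 for 4 TCA cycle genes. As deposited, 29 of these 32 ribosomal protein genes (90.6%) and all 8 import genes were higher, against 79.9% of all genes there.

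The regulators of mitochondrial biogenesis had a median of 0.13 (0.10 after loess). As deposited 16 of 17 (94.1%) were higher, against 49.8% of all genes. The lower one was PPARGC1B, at -0.15 on 1 probe set, and PPARGC1A was below the filter at 65.25 in the control. NRF1 and YY1 differed by only 0.06 and 0.03, each with probe sets on both sides of 0. TFAM, which packages and transcribes mitochondrial DNA, read 336.9 and 434.5, a difference of 0.35, with 3 probe sets from 0.21 to 0.39. MYC, also known to activate mitochondrial genes, read 641.5 and 898.2, a difference of 0.48 on 1 probe set. Both stayed above 0 after quantile normalization (0.29 and 0.37) and loess (0.31 and 0.38). Among the electron carrier genes (14, median 0.07 as deposited and after loess), cytochrome c (CYCS) read 2457 and 3034, a difference of 0.30, and 0.30 on its other probe set. HCCS, which attaches heme to cytochrome c, differed by 0.27.

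The TCA cycle genes, which feed the chain with NADH and succinate, had a median of 0.04 as deposited and -0.02 after loess. As deposited 7 of 12 (58.3%) were higher, against 49.8% of all genes. Citrate synthase (CS), the entry enzyme, read 875 and 719.1, a difference of -0.28 on 1 probe set, with 83 genes of 12220 showing a larger decrease. IDH3A, a subunit of the NAD-dependent isocitrate dehydrogenase, read 281.3 and 384.2, a difference of 0.43, but its 4 probe sets spanned -0.06 to 0.48.

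**Figure D3:**
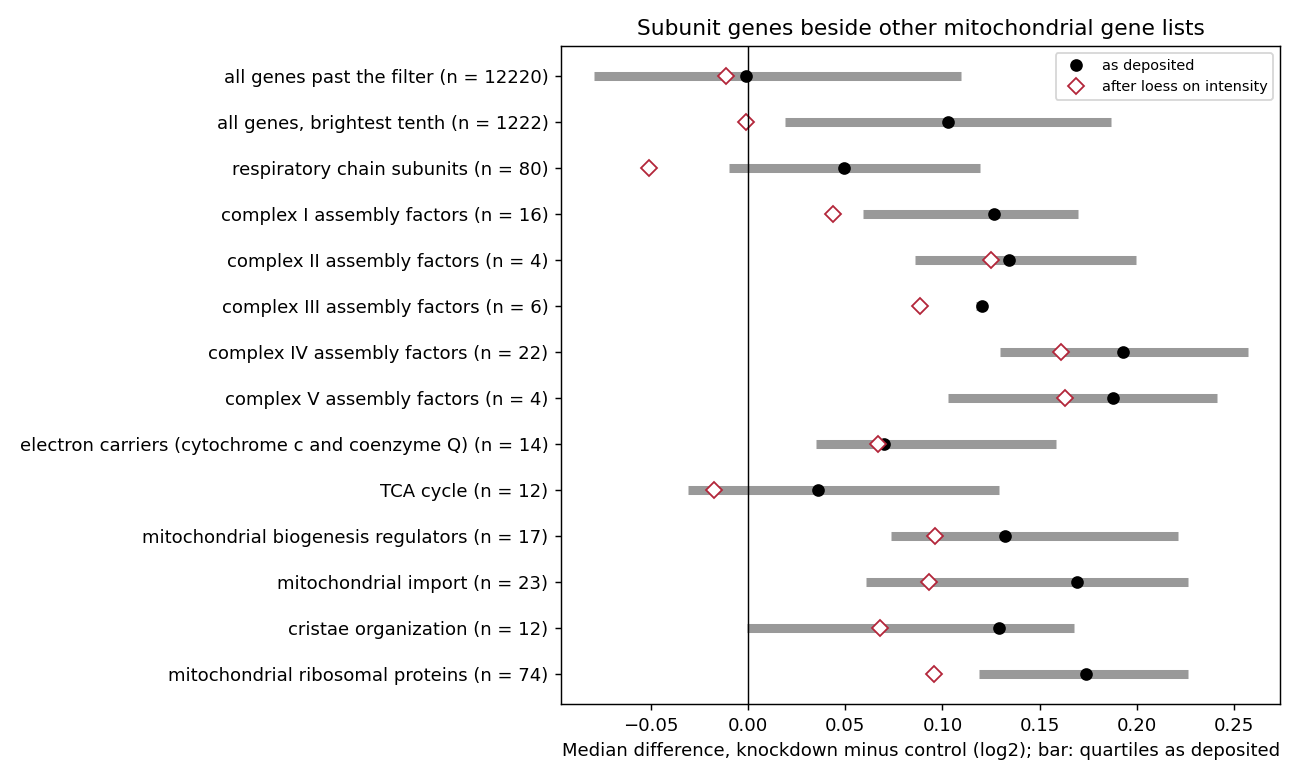
Black points are median log2 differences, knockdown minus control, of gene lists as deposited, grey bars their quartiles and red diamonds the median after loess on intensity; n is the number of genes past the filter. The subunit median moved from 0.05 to -0.05, while assembly factors, import genes and mitochondrial ribosomal proteins stayed above 0 under loess.

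Of the markers of an epithelial line, EPCAM, KRT8, KRT18, KRT19 and CDH1 passed the filter, with VIL1 and CEACAM5 below it, and the summed level of these 7 was 7420 in the control and 8735 in the knockdown. Markers of other cells were dim apart from TNNT1, at 956 in the control. The summed level was 826 and 783 for 7 fibroblast markers, 461 and 447 for 5 immune markers, 768 and 716 for 5 endothelial markers and 1579 and 1565 for 6 striated muscle markers. PTPRC, the defining immune marker, was below the filter at 53.66 in the control, while CD3E (137.2) and HLA-DRA (144.9) passed it. Of the fibroblast, endothelial and striated muscle markers, 3 of each list also passed. The part of other cells in the subunit values was not tested.

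**Figure D4:**
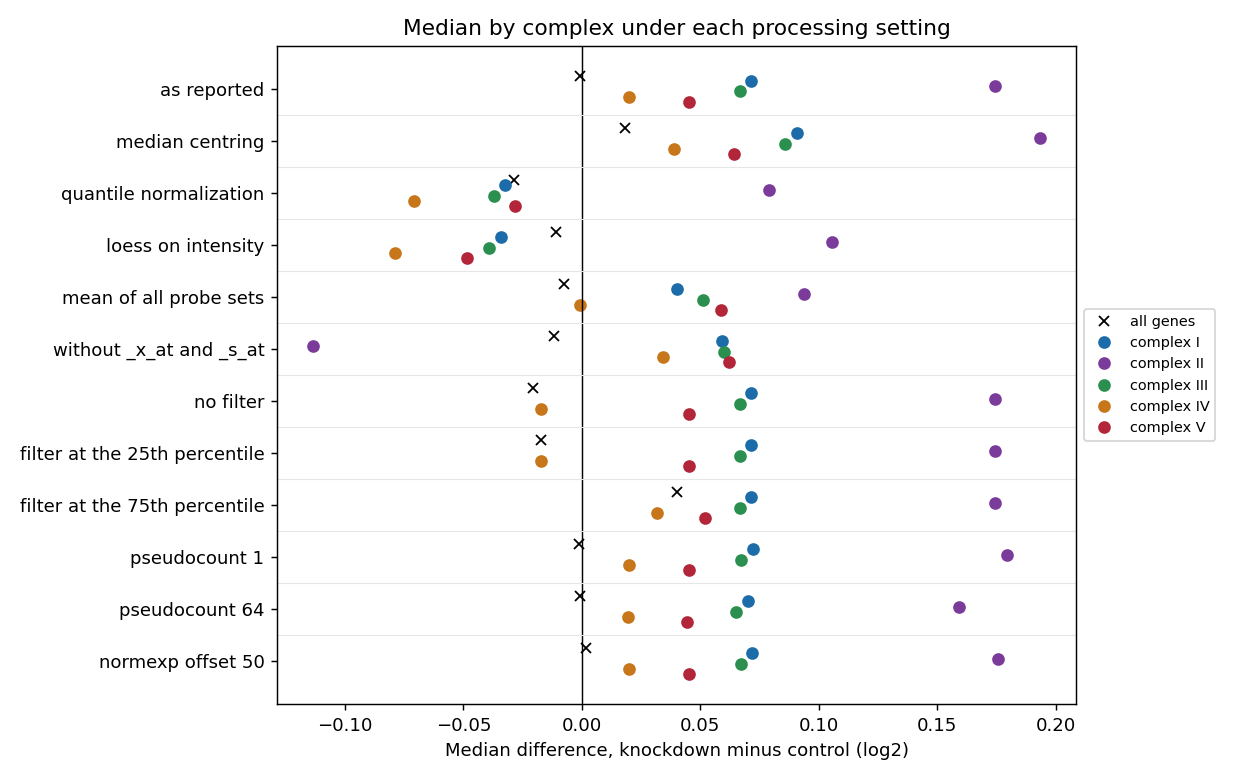
Each row is 1 processing setting, with the median log2 difference (knockdown minus control) of the genes of each complex as a coloured point and of all genes past the filter as a cross. Complexes I, III, IV and V lay at 0.02 to 0.07 as reported and at -0.08 to -0.03 after quantile normalization or loess; complex II fell to -0.11 only without the _x_at and _s_at classes, where SDHC alone was left.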

How the data were processed

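The values the authors deposited were probe set intensity readings on a linear scale for both arrays. MAS5 and RMA appear in the submitters' processing notes without a role or order; how the arrays were scaled to each other was not stated. A value of 16 was added before log2 of the deposited intensity, and background remains in the values, so folds of dim genes are understated. Of 49293 probe sets without controls, 44988 had 1 gene symbol, updated through the Entrez ID in RefSeq (44961 matched); those with several (1832) or none (2473) were not used for genes. With 1 array per group no test was run: counts past a fold and medians are descriptions. The members and lists were chosen with earlier results of these data known. Genes were named by a rule: SDH genes, the 4 highest and 4 lowest of each other complex, core subunits, isoforms, any member past 1.2-fold and the 2 largest differences per related list; further members are named to complete a group. Alternatives were median centring, quantile normalization, loess, the mean of all probe sets, leaving out the _x_at and _s_at classes, 3 other filters, pseudocounts of 1 and 64 and normexp (limma 3.58.1, offset 50). The 1.1-fold counts, the counts over 4 scalings and the values and fold counts within the brightest 10% were added after the data were seen. The steps of the main setting were tested on simulated data that held no trend of the difference with brightness. The other scalings were not tested in this way. Protein sequences were not compared here. Tools were Python 3.11.15 and R 4.3.3.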

Additional observations from a re-analysis of the deposited data

How the results depend on the processing

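No paired analysis was possible because neither group has a second array, which also means that leaving out a replicate was not an option. The subunit median (0.05) was -0.048 after quantile normalization and -0.051 after loess, and the count of higher genes, 57, was 25 and 23. The complex I median was -0.032 and -0.034, that of complex III -0.037 and -0.039, and that of complex IV -0.079 after loess. The complex II median was 0.079 after quantile normalization and -0.11 without the _x_at and _s_at classes. Genes at least 1.2-fold higher numbered 1 after median centring and 1 without those classes, COX7C in the first case and NDUFB5 in the second; genes at least 1.2-fold lower numbered 0 without those classes, which leaves out the only ATP5MC1 probe set. The complex IV median also turned slightly negative with no filter or the 25th percentile filter, which add its 3 dim isoforms. Of 555 values of the 51 named genes under the alternatives, 477 moved by less than the probe set SD of 0.09 and 78 moved by more. The 477 include values that could not move further. The 3 other filters leave a gene's value unchanged, and median centring shifts all genes alike by a small amount. The sign changed in 53 of the 555, in 29 genes, 37 times under quantile normalization or loess. ATP5MC1, the only member past 1.2-fold as reported, kept its sign, but it had no value without the _x_at and _s_at classes. Quantile normalization accounts for 31 and loess for 38 of the 78. The number of arrays limits the precision, and signal over background could not be judged per probe set.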

Other observations

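A further 8 probe sets carry the symbol of a respiratory chain gene together with that of another gene and so name neither. All 8 passed the filter, 4 were higher in the knockdown array, and their differences ran from -0.10 to 0.34.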
